A study of Homo sapiens with 120 samples.

Results

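The earliest response of U2OS cells to thapsigargin was measured in 6 libraries of the 120 in the series: 3 wells of the Parental line treated with 100 nM thapsigargin for 2 h, and 3 untreated wells of the same line labelled 0 h. They were chosen by their titles alone, and 26998 of the 57665 genes in the deposited table passed the filter on low counts and were tested. U2OS is a human osteosarcoma cell line, and Parental cells carry no added construct. The labels give the genotype of all groups used here as WT. No untreated wells at 2 h are among the samples, so 2 h of drug and 2 h of time on the plate go together in this comparison. For that reason 3 Parental wells given the dimerizer AP20187 for 2 h served as a control of the same age, because Parental cells have no dimerizer-binding construct. The other groups used were Parental cells in 0.05 mM arsenite for 2 h, Parental cells in 100 nM thapsigargin for 4, 8, 16 and 24 h, untreated Parental wells at 4 h, and Dmr-PERK cells untreated at 0 h and in 100 nM thapsigargin for 2 h. Dmr-PERK cells are U2OS cells with a stable construct of a DmrB dimerization domain fused with the mouse PERK kinase domain, and they received no dimerizer in the wells used. Each group had 3 wells of a 24-well plate. The labels do not say whether the wells were separate cultures. All 120 libraries were fitted together, so a p-value here rests on how wells varied within all 40 groups of the series. That may be a technical spread.

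The 6 libraries held 16792574 to 27706720 estimated counts and detected 30686 to 34426 genes. Mitochondrial genes took 5.0% to 5.88% of the counts. Wells of a group correlated at 0.9979 or above in the untreated Parental group at 0 h, and no pair was near-identical enough to be 1 library deposited as 2. Of the markers of bone cells, RUNX2 (41.1 CPM, mean of the 6 libraries) and COL1A1 (3300 CPM) were present, while IBSP was at 0 in all 6 libraries and SP7 (0.0615 CPM), DLX5 (0.141 CPM) and BGLAP (0.564 CPM) were near it. The keratins KRT8 (273 CPM) and KRT18 (315 CPM) were present, and EPCAM was at 3.85 CPM. The 7 blood cell markers tested summed to 2.76 to 3.27 CPM in the untreated wells and 2.7 to 2.84 CPM in the treated wells, and 0 of them were called.

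Thapsigargin blocks SERCA, the pump that fills the endoplasmic reticulum (ER) with calcium. Calcium then leaks into the cytosol, where it acts on calcineurin, CREB and kinase pathways that switch on immediate early genes. Inside the ER, calcium-dependent folding fails and the unfolded protein response begins through its sensors PERK, IRE1 and ATF6. PERK phosphorylates eIF2alpha, which lowers general translation and favours the translation of ATF4, the arm shared with the integrated stress response. IRE1 splices XBP1 mRNA and cuts some mRNAs at the ER, and ATF6 is cleaved to a transcription factor for chaperone genes.

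At 2 h, 4476 genes were called higher and 3394 lower than in the untreated wells (edgeR quasi-likelihood test, Benjamini-Hochberg adjusted p under 0.05), which is 16.6% and 12.6% of the genes tested. The median log2 fold change over all genes tested was -0.017. Scaling by upper quartiles in place of TMM moved that median to -0.11 and the calls to 3305 higher and 5619 lower, so the balance of small rises and small falls depends on the scaling. Changes of at least 2-fold were far fewer, with 454 genes higher (1.68%) and 433 lower (1.6%). Set against the dimerizer wells of the same age, 4386 genes were called higher (16.2%) and 3296 lower (12.2%). The dimerizer wells themselves differed from the untreated wells at 48 genes, which is 0.178% of the genes tested, with 12 higher (0.0444%) and 36 lower (0.133%), of which 10 were at least 2-fold lower (0.037%). That count rests on few wells, since it was 15 without untreated well 2, 22 without untreated well 3, 25 without dimerizer well 2 and 17 without dimerizer well 3. It was 78 with DESeq2, and 1632 genes had an unadjusted p under 0.05. All of these comparisons share wells, so they do not support each other independently. Of the 454 genes at least 2-fold higher, 378 were also called higher against the dimerizer wells. Of the 433 at least 2-fold lower, 206 were also called lower against them, and 18 had already been called lower in the dimerizer wells.

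EGR1, ATF3 and DDIT3 were higher in the untreated wells at 0 h than in those at 4 h. EGR1, an immediate early transcription factor, stood at 199, 209 and 201 CPM (counts relative to the library total, with TMM scaling between libraries) in the untreated 0 h wells and at 47.8 ± 1.7 CPM (SD, n = 3) in untreated wells at 4 h. ATF3, a stress-induced repressor, went from 50.4, 45.3 and 47.1 CPM to 11.4 ± 1.01 CPM (SD, n = 3), and DDIT3 (CHOP), a pro-death factor downstream of ATF4, from 41.8, 35.1 and 36.6 CPM to 12.6 ± 1.04 CPM (SD, n = 3). For these genes a comparison with 0 h gives a smaller rise than one with untreated 4 h wells would. The dimerizer wells at 2 h were near the 0 h wells, with EGR1 at 217 ± 33.2 CPM, ATF3 at 55.2 ± 5.56 CPM and DDIT3 at 45.3 ± 2.02 CPM (SD, n = 3 each). The cause of the higher level at 0 h was not tested.

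The 12 largest rises included the cytokines LTB and TNF, 3 EGR factors and several stress factors. LTB, which encodes lymphotoxin beta, lies on chromosome 6 from 31580525 to 31582522 (GRCh38, minus strand) and was at 0.387, 0.349 and 0.387 CPM in untreated wells and 7.27, 4.48 and 4.52 CPM after thapsigargin. This was the largest log2 fold change among genes whose groups did not overlap and whose higher mean reached 5 CPM, at 3.87 ± 0.28 (SE, edgeR adjusted p = 3.41e-24), though its level remained low. EGR4, an immediate early zinc finger factor on chromosome 2 (73290929 to 73293705, minus strand), went from 24, 22.9 and 23.1 CPM to 332, 334 and 310 CPM, a 13.9-fold rise. TNF, the inflammatory cytokine, went from 1.44, 1.98 and 1.44 CPM to 17.5, 13.1 and 13.3 CPM. ATF3 reached 447, 448 and 423 CPM and DDIT3 346, 368 and 340 CPM, each up by 3.2 on the log2 scale. EGR1 reached 1553.4, 1649.1 and 1565.4 CPM. The 12 genes were picked among those whose treated and untreated wells did not overlap, so that separation is not a result. In all of the genes above, the dimerizer mean lay near the untreated wells.

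The other genes of this group were ZNF165 (log2 fold change 3.22), DDIT4 (3.06), EGR2 (2.99), FOSB (2.88), CHAC1 (2.85) and HSD17B7P2 (2.78). ZNF165 encodes a zinc finger protein best known from testis, and its wells rose from 2.32, 2.79 and 2.54 CPM to 24.6, 23.7 and 21.9 CPM. DDIT4 (REDD1) restrains mTORC1, and CHAC1 breaks down glutathione. HSD17B7P2 is a transcribed pseudogene of the cholesterol enzyme HSD17B7, and reads that fit both copies make its value uncertain. HSD17B7 itself rose by 1.52 on the log2 scale.

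**Figure D1:**
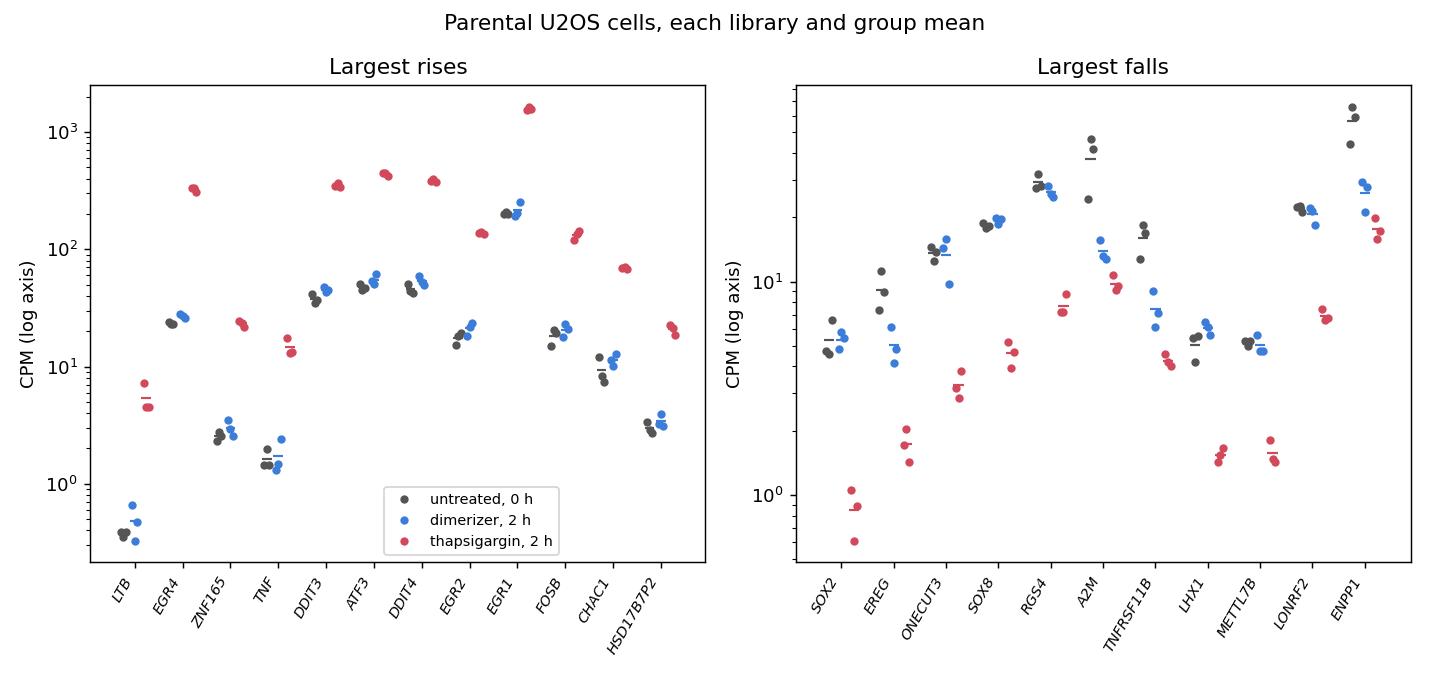
CPM (log axis) of the 12 genes with the largest rises and 11 of the 12 with the largest falls in Parental cells, each point a library and each short line a group mean, for untreated 0 h, dimerizer 2 h and thapsigargin 2 h (3 wells each). In the left panel the dimerizer wells sit with the untreated wells, while in the right panel EREG, A2M, TNFRSF11B and ENPP1 were already lower in the dimerizer wells.

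Targets of ATF4 and CHOP were higher in most cases. Of 33 target genes tested, 29 were called higher and 1 lower, with a median log2 fold change of 0.77, against a share of 16.6% called higher over all genes. Against the dimerizer wells 26 were higher and 0 lower (median 0.58). ATF4 mRNA itself, which encodes the central factor of the integrated stress response, went from 276, 263 and 276 CPM to 512, 532 and 491 CPM (0.91 ± 0.03 on the log2 scale, SE, edgeR adjusted p = 7.96e-42). SESN2, a stress sensor that inhibits mTORC1, went from 27.3, 24.4 and 21.6 CPM to 141, 141 and 124 CPM. PPP1R15A (GADD34), which brings a phosphatase to eIF2alpha and so closes the response, went from 61.3, 61.7 and 64.8 CPM to 293, 291 and 278 CPM. For all 3 the groups were far apart.

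Several metabolic targets of ATF4 had smaller fold changes at 2 h. ASNS (asparagine synthetase) went from 61.3, 62.3 and 65 CPM to 102, 101 and 99.2 CPM, a log2 fold change of 0.68, and was also slightly higher in the dimerizer wells (0.19). TRIB3, a pseudokinase that dampens ATF4 and CHOP, went from 21.3, 18.9 and 19.1 CPM to 52.5, 48.1 and 50.1 CPM. CTH, of cysteine synthesis, rose by 1.61 and FGF21, a secreted stress hormone, by 1.98, the latter from under 1 CPM. The 3 targets that were not called were STC2 (0.99), ERO1A (0.04) and EIF4EBP1 (-0.00), and ATF5 fell by 0.18.

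The amino acid genes that ATF4 is known to drive were partly changed. Of 14 amino acid transporters 8 were higher and 0 lower (median 0.3), led by SLC3A2 (0.77), the shared heavy chain of several exchangers, SLC1A4 (0.75) and SLC7A11 (0.73), the cystine carrier. With untreated 4 h wells as the control 4 were higher and 2 lower (median 0.07). Of 20 cytosolic aminoacyl-tRNA synthetases 11 were higher and 4 lower (median 0.14). Under upper-quartile scaling these counts were 8 and 8, and with untreated 4 h wells as the control 7 and 8 (median -0.04). AARS (0.79), CARS (0.73) and YARS (0.46) rose, while FARSB (-0.21), HARS (-0.17), KARS (-0.14) and QARS (-0.11) were lower. Of 12 serine and one-carbon enzymes 8 were higher and 2 lower (median 0.26), with the mitochondrial enzymes MTHFD2 (0.65) and SHMT2 (0.42) among those with the smallest p. MTHFD1 (-0.12), the cytosolic counterpart of MTHFD2, and TYMS (-0.18), thymidylate synthase, were lower.

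ER chaperones and folding enzymes formed a second group, with 14 of 18 higher and 2 lower (median 0.58), and the same 14 and 2 counts against the dimerizer wells. HSPA5 (BiP), the main ER chaperone, is on chromosome 9 (125234853 to 125241330, minus strand) and went from 958, 856 and 882 CPM to 3373.7, 3356.3 and 3263.4 CPM, a 3.71-fold rise (edgeR adjusted p = 1.54e-62). SDF2L1, a partner of BiP cycling, went from 54.4, 43.5 and 43.3 CPM to 166, 178 and 152 CPM. DNAJC3 (1.65), HYOU1 (1.5), MANF (1.5), DNAJB11 (1.47), CRELD2 (1.3) and HSP90B1 (1.08) also passed 2-fold. The calcium-binding lectin chaperones CALR (0.53) and CANX (0.39) and the disulfide isomerases P4HB (0.59), PDIA4 (0.56), PDIA3 (0.38) and PDIA6 (0.3) rose less. The 2 members that fell were SIL1 (-0.28), a nucleotide exchange factor of BiP, and CALU (-0.28).

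Some of these genes share one promoter sequence, which was found in 5 of 17 ER chaperone promoters (29.4%). The ER stress element consists of CCAAT and CCACG 9 bases apart, read on either strand, and is the known binding site of NF-Y with ATF6 or XBP1. In a window of 250 bases before to 50 after the start of each gene (RefSeq promoters, GRCh38.p14), it was found at 18 of the 15281 tested genes with a promoter in the table, which is 0.118%, and at 6 of the 282 at least 2-fold higher genes with one, which is 2.13%. Elements from 6 promoters of at least 2-fold higher genes and from 2 promoters of genes that rose less or were not called are shown with up to 20 bases on either side, 5′ to 3′ on the strand of the gene, to let the shared ends and the free middle be compared. The element is in capitals.
HSPA5, chr9:125241371-125241429, minus strand: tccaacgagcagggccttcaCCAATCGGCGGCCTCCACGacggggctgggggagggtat
XBP1, chr22:28800583-28800641, minus strand: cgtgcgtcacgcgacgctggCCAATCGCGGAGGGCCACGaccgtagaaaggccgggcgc
FICD, chr12:108515103-108515161, plus strand: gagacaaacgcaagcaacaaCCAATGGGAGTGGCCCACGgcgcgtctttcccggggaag
ERO1B, chr1:236282163-236282208, minus strand: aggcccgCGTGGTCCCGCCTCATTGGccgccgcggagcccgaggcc
CRELD2, chr22:49918534-49918592, plus strand: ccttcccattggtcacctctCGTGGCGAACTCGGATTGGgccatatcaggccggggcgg
HSP90B1, chr12:103930301-103930359, plus strand: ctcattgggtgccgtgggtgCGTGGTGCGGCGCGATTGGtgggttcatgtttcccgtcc
CANX, chr5:179698758-179698816, plus strand: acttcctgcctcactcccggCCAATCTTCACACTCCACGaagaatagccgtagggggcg
TMEM120A, chr7:75994660-75994718, minus strand: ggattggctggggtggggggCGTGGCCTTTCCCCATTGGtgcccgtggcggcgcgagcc

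In ERO1B, CRELD2, HSP90B1 and TMEM120A the element reads in the opposite direction, from CGTGG to ATTGG, and HSP90B1 holds 2 elements, of which the one nearer to the start is shown. Of the 18 genes 13 were called higher, 0 lower and 5 were not called, with a median log2 fold change of 0.66. FICD, an enzyme that modifies BiP, rose by 1.78 and ERO1B, an ER oxidase, by 1.63, from mean levels of 5.91 and 10.3 CPM. Neither was on a gene list. TMEM120A held the element and was at 17 CPM untreated and 18.1 CPM treated (0.09, not called). CRELD2 and ALG12 share 1 element between their divergent starts, as do SERP1 and EIF2A. All 6 of the at least 2-fold higher genes with the element were called higher still at 4 h than at 2 h, XBP1 by only 0.11. Of all 454 at least 2-fold higher genes, 93 (20.5%) were. That difference shares the 2 h wells and holds drug and time on the plate together. The other motifs searched, on both strands, were found in these shares of the at least 2-fold higher genes and of all tested genes: the CRE (TGACGTCA) in 2.48% against 2.81%, the AP-1 site (TGANTCA) in 5.67% against 5.88%, the UPR element (TGACGTGG) in 1.06% against 0.969%, the C/EBP-ATF composite element (TGATGNAAT) in 1.42% against 0.615% and the CArG box in 1.77% against 1.09%. A match in this window is a description of the sequence only.

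**Figure D2:**
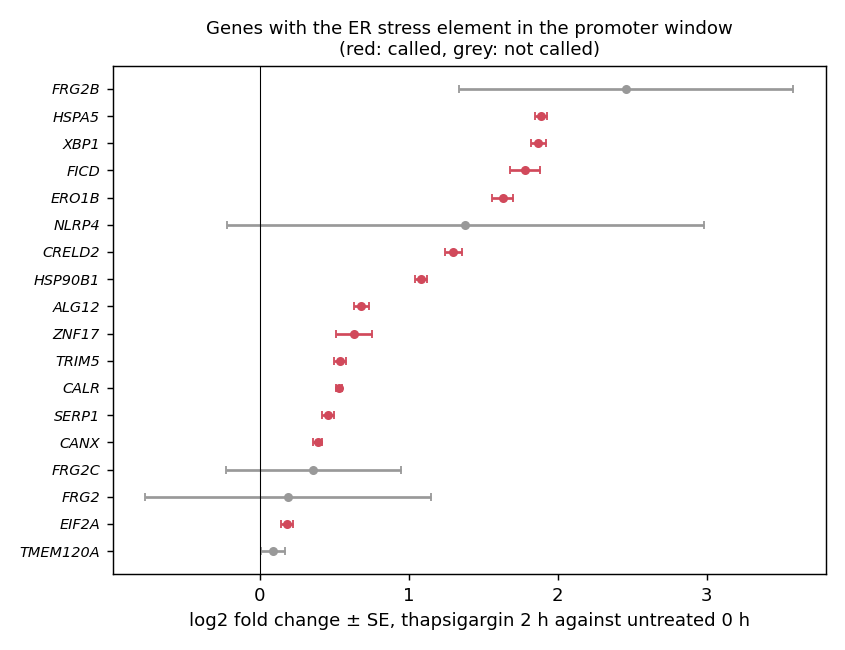
Log2 fold change ± SE (thapsigargin 2 h against untreated 0 h, Parental) of the 18 tested genes whose promoter window holds the ER stress element, called genes in red and others in grey. The 13 called genes are all above 0, and 4 of the 5 that were not called have wide error bars.

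Genes of ER-associated degradation and secretion were split, with 13 of 25 higher and 7 lower (median 0.21). HERPUD1, a scaffold of the degradation complex, went from 195, 158 and 170 CPM to 1050, 1052.7 and 1030.9 CPM, a 5.98-fold rise, and was 0.25 higher on the log2 scale in the dimerizer wells. DNAJB9, a BiP co-chaperone that restrains IRE1, went from 25.5, 20.1 and 21.1 CPM to 105, 101 and 99.9 CPM. XBP1, the transcription factor spliced by IRE1, went from 102, 88.6 and 90 CPM to 350, 346 and 336 CPM, with spliced and unspliced forms counted together. The retrotranslocation genes SEL1L (1.18), SYVN1 (1.17), DERL2 (0.88) and EDEM1 (0.86) rose, whereas the translocon subunits SEC61G (-0.29), SEC61B (-0.19) and SEC61A1 (-0.12), the translocon-associated SSR1 (-0.29), the receptor subunit SRPRB (-0.17), KDELR3 (-0.28) and DERL1 (-0.1) were lower. With untreated 4 h wells as the control the list stood at 12 higher and 10 lower.

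Among 11 genes of the response's sensors and their processing, 6 were higher and 2 lower (median 0.14). EIF2AK3, which encodes PERK, went from 52.5, 50.7 and 47.7 CPM to 171, 169 and 171 CPM (1.76 ± 0.05, SE), while ERN1, which encodes IRE1, rose by 0.26 and ATF6 was not called (-0.05). Transcripts known to be cut by IRE1 were lower in 10 of 12 cases and higher in 0 (median -0.3), against 12.6% called lower over all genes. The lowest were SUMF1 (-0.58), COL6A1 (-0.52), PDGFRB (-0.48) and BLOC1S1 (-0.46). Against the dimerizer wells 11 of the 12 were lower.

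Immediate early genes rose in every case tested, 23 of 23 (median 1.59), and all 23 were also higher against the dimerizer wells (median 1.51). JUN, a subunit of AP-1, went from 195, 192 and 203 CPM to 994, 1047.4 and 987 CPM. FOS, its partner, went from 20.7, 20.4 and 21.2 CPM to 87.5, 103 and 96 CPM. NR4A1, an orphan nuclear receptor that calcium induces, went from 654, 669 and 730 CPM to 1895.8, 2006.9 and 2024.4 CPM. MYC, the growth factor-induced transcription factor, went from 140, 126 and 130 CPM to 569, 561 and 534 CPM. None of these groups overlapped, but the share of all tested genes without overlap was not counted. ZFP36 (2.56), which degrades cytokine mRNAs, IER2 (2.08) and MCL1 (1.01), a survival protein, also passed 2-fold.

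Of 20 genes responsive to calcium, calcineurin or CREB with its CRTC coactivators, 16 were higher and 2 lower (median 0.67). PTGS2 (COX-2) went from 10.4, 11.1 and 9.68 CPM to 44.6, 43.5 and 44 CPM. RCAN1, the calcineurin inhibitor that calcineurin itself induces, went from 240, 222 and 236 CPM to 496, 494 and 490 CPM. The CREB targets PER1 (1.59), PPARGC1A (1.1) and SIK1 (0.82) rose. The list shares NR4A1, NR4A2, NR4A3 and EGR3 with the immediate early list. RGS4, a G-protein brake, and AREG, an EGF receptor ligand, fell by 1.92 and by 1.03.

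The target of the drug was itself higher. ATP2A2, which encodes SERCA2, went from 283, 266 and 275 CPM to 449, 452 and 445 CPM (0.71 ± 0.04, SE, edgeR adjusted p = 6.61e-27). Of 18 calcium store genes 4 were higher and 2 lower (median 0.0), near the 16.6% and 12.6% over all genes. The others higher were ORAI3 (0.6), a plasma membrane calcium channel, HOMER1 (0.57), a scaffold of calcium channels, and SARAF (0.22), a brake on store-operated entry. The store sensors STIM1 (0.01) and STIM2 (-0.03) were not called.

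Of 16 MAP kinase feedback genes 7 were higher and 2 lower (median 0.02). Under upper-quartile scaling 5 were lower. Among the higher were phosphatases known to act on JNK and p38, DUSP1 from 205, 186 and 197 CPM to 553, 624 and 609 CPM, DUSP10 by 1.6, DUSP16 by 1.33 and DUSP8 by 1.23. The ERK-directed phosphatase DUSP6 was not called (-0.16), DUSP7 fell by 0.53 and SPRY2, a receptor signalling inhibitor, fell by 0.28. Of 14 KLF factors 7 were higher and 1 lower (median 0.33), led by KLF10 (1.1), KLF11 (0.94) and KLF6 (0.69). KLF4 was barely expressed, at 0.111 to 0.246 CPM untreated and 0.221 to 0.356 CPM treated, and was not called.

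**Figure D3:**
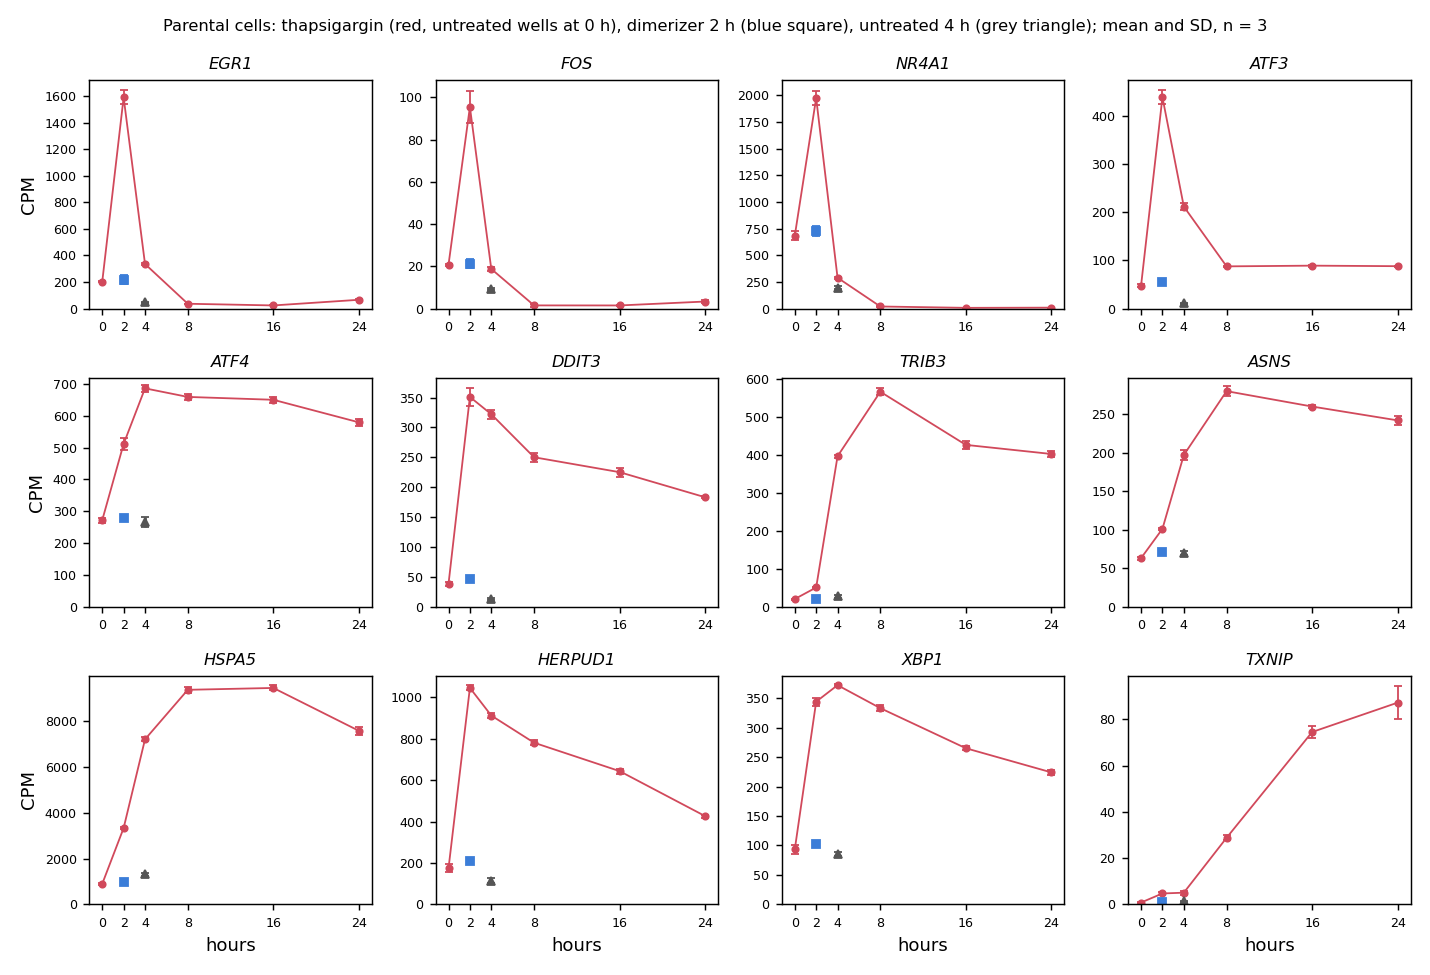
CPM (linear axis, mean and SD of 3 wells) against hours for 12 genes in Parental cells: thapsigargin in red with the untreated wells at 0 h, dimerizer 2 h as a blue square and untreated 4 h as a grey triangle. EGR1, FOS, NR4A1 and ATF3 peak at 2 h, TRIB3, ASNS and HSPA5 are higher at 4 and 8 h than at 2 h, and TXNIP goes on to 24 h.

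NF-kB targets and inflammatory genes rose in 18 of 21 cases tested and fell in 0 (median 0.96). With untreated 4 h wells as the control 15 were higher and 3 lower (median 0.58). CXCL8, a neutrophil chemokine, went from 116, 103 and 91.2 CPM to 356, 316 and 290 CPM. TNFAIP3 (A20), an inhibitor that NF-kB induces, went from 102, 95.9 and 102 CPM to 376, 359 and 341 CPM, and NFKBIA, which holds NF-kB in the cytosol, from 123, 121 and 130 CPM to 329, 329 and 317 CPM. CXCL3 (2.56) and IL6 (2.0) rose from under 3 CPM. The subunits NFKB2 (0.78), RELB (0.96), NFKB1 (0.62) and RELA (0.31) rose as well. ICAM1 (0.34), CXCL2 (0.56) and IL1A (0.97) were not called. Of interferon-stimulated genes 4 of 22 were higher and 3 lower (median -0.15), near the 16.6% and 12.6% over all genes. Of the 22, IRF1 (1.56) rose, and IFIT1 (-0.74) and OASL (-0.91) fell. Against untreated 4 h wells IFIT1 was at 0.29 and not called.

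ID genes and BMP targets were higher in 11 of 12 cases and lower in 0 (median 0.85). ID3, an inhibitor of basic helix-loop-helix factors, went from 106, 102 and 107 CPM to 421, 438 and 400 CPM. ID1 (1.17), ID4 (0.93) and ID2 (0.47) rose, as did the extracellular BMP antagonist NOG (1.27), the pseudoreceptor BAMBI (1.43) and the inhibitory SMAD6 (0.48) and SMAD7 (0.5). ATOH8 (0.56) and SMAD9 (0.32) were already higher in the dimerizer wells, and against those wells they were 0.55 and 0.3 higher. Of 10 Notch-related genes 2 were higher and 2 lower (median -0.1), near the 16.6% and 12.6% over all genes. HES1, a repressor that calcium and CREB signals can also induce, went from 61.9, 69.5 and 69.5 CPM to 186, 184 and 189 CPM, while NOTCH3 fell by 0.74 and LFNG by 0.59.

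Circadian clock genes were higher in 14 of 19 cases and lower in 0 (median 0.54). NR1D1 (REV-ERB alpha), a repressor of the clock, went from 22.4, 21.2 and 24.1 CPM to 103, 112 and 103 CPM, while the dimerizer wells had a mean of 22.4 CPM. PER1 (1.59), NFIL3 (1.57), BHLHE40 (1.04), NR1D2 (0.67) and the output factors TEF (0.69) and DBP (0.63) rose. CLOCK (0.09) and NPAS2 (-0.01) were not called. Of 19 YAP and TEAD targets 12 were higher and 3 lower (median 0.27), with NUAK2 (1.81), AMOTL2 (0.86) and AJUBA (0.85) first by p and CTGF (0.41), CYR61 (0.53) and ANKRD1 (0.55) following. The 3 lower were F3 (-0.26), AMOTL1 (-0.14) and AXL (-0.11). Among 16 SRF and actin genes 6 were higher, such as CNN1 (0.74) and TAGLN (0.5), and 4 lower (median 0.05). Under upper-quartile scaling 3 were higher and 7 lower, and with untreated 4 h wells as the control 6 and 9 (median -0.12).

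Cholesterol synthesis and other SREBP targets rose together, 19 of 22 higher and 0 lower (median 0.94), and 17 of 22 were higher against the dimerizer wells (median 0.89). SREBP2 is activated on its way from the ER by the same proteases that cleave ATF6. HMGCS1, an early enzyme of the pathway, went from 245, 219 and 232 CPM to 948, 967 and 927 CPM. The sterol transfer protein STARD4 (1.71) and the SREBP anchor INSIG1 (1.61) rose as well. The enzymes EBP (-0.01) and PMVK (-0.16) were among those not called.

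TXNIP, which restrains glucose uptake, was low but higher in all 3 wells, from 0.88, 0.931 and 0.664 CPM to 5.27, 4.53 and 4.41 CPM (2.51 ± 0.28, SE). Of the 5 alpha-arrestin genes of this list, ARRDC3 (1.35) and ARRDC4 (1.0) also rose, and ARRDC1 (-0.15) and ARRDC2 (0.08) were not called. With 5 members the list is small, and the median of 1.0 stands beside -0.017 over all genes.

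**Figure D4:**
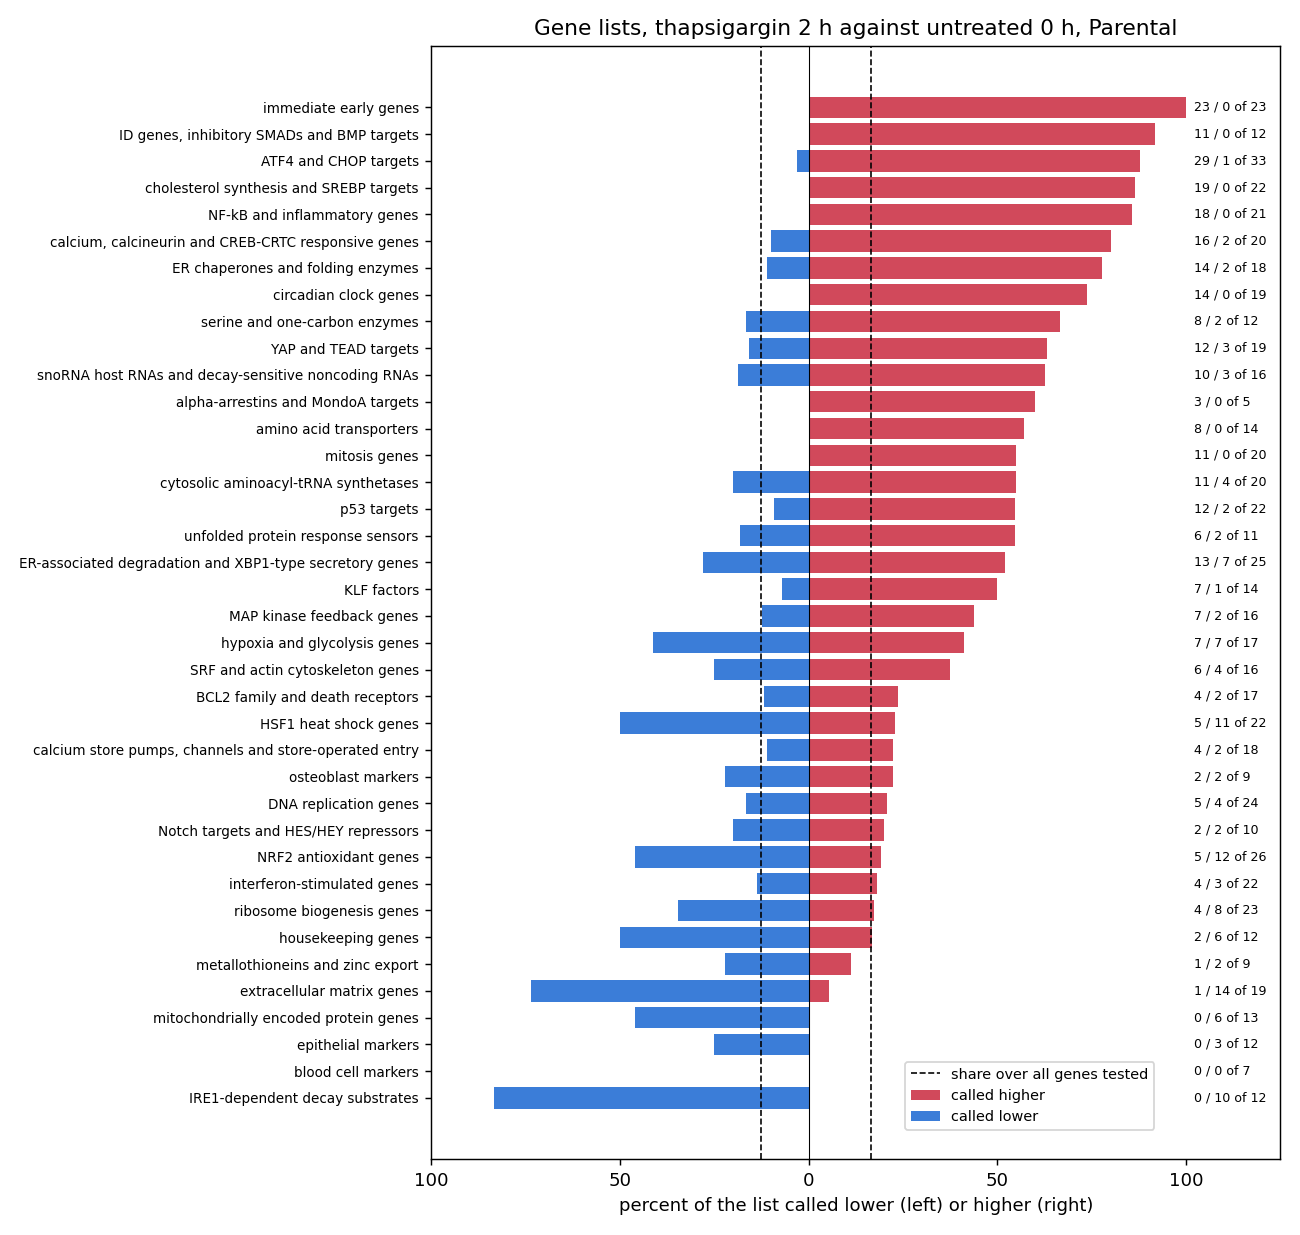
Percent of each gene list called higher (red, right) or lower (blue, left) at 2 h in Parental cells, with the counts of genes higher and lower of those tested at the right. The dashed lines mark the share over all genes tested, 16.6% higher and 12.6% lower. Immediate early genes stand at the top with 23 of 23 higher, and IRE1-dependent decay substrates at the bottom with 10 of 12 lower.

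Of the 12 largest falls, 8 were in genes not called in the dimerizer wells. SOX2, a stem cell transcription factor on chromosome 3 (181711924 to 181714436, plus strand), went from 4.75, 4.59 and 6.64 CPM to 1.05, 0.611 and 0.883 CPM, and its dimerizer mean was 5.35 CPM. ONECUT3, a homeobox factor, went from 14.6, 12.5 and 13.7 CPM to 3.18, 2.85 and 3.81 CPM, and SOX8 from 18.9, 17.9 and 18.3 CPM to 5.23, 3.92 and 4.69 CPM. RGS4 went from 27.4, 32.1 and 28.2 CPM to 7.19, 7.23 and 8.72 CPM. LHX1 (-1.74), METTL7B (-1.71) and LONRF2 (-1.67) were lower in both comparisons as well. All of these were also called lower against the dimerizer wells.

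Another 4 of the 12 largest falls were already lower without thapsigargin. A2M, a protease inhibitor, went from 24.5, 46.7 and 41.8 CPM to 10.7, 9.12 and 9.49 CPM, but the dimerizer wells had a mean of 13.9 CPM, and against them the log2 difference of -0.49 was not called. ENPP1, a pyrophosphate-forming enzyme of mineralization, went from 44.1, 66.1 and 59.2 CPM to 19.9, 15.9 and 17.3 CPM, with 26 CPM in the dimerizer wells. TNFRSF11B (osteoprotegerin) differed by -1.87 from the untreated and by -0.78 from the dimerizer wells, and EREG, an EGF receptor ligand, by -2.36 and by -1.52. MMP9 (-1.16 and -0.4) and CHI3L1 (-2.92 and -1.25), 2 secreted proteins, were called against the untreated wells and not against the dimerizer wells. In these 6 genes the first untreated well was the lowest of the 3. For the part of the fall that the dimerizer wells share, time on the plate and the dimerizer cannot be told apart.

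Extracellular matrix genes were lower in 14 of 19 cases and higher in 1 (median -0.42), and against the dimerizer wells 13 were lower and 1 higher (median -0.25). COL1A1, the main fibrillar collagen, went from 3821.6, 3931.5 and 3941.2 CPM to 2678.4, 2626.8 and 2660.3 CPM, with 3869.8 CPM in the dimerizer wells. The basement membrane collagens COL4A1 (-0.94) and COL4A2 (-0.61) and COL5A1 (-0.61) fell. FN1 (fibronectin) fell by 0.86, of which -0.27 remained against the dimerizer wells. The 1 higher gene was THBS1 (0.24), an activator of latent TGF-beta.

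Cytosolic heat shock genes were lower in 11 of 22 cases and higher in 5 (median -0.15). HSPA8, the constitutive HSP70, went from 1102.8, 1036.8 and 1055.6 CPM to 721, 704 and 664 CPM, and HSPA1A, the inducible one, from 109, 93.8 and 92.1 CPM to 69.5, 65.7 and 54.9 CPM. HSPA1A and HSPA1B are near-identical copies, so the split of reads between them is uncertain. DNAJB1 (0.63) and DNAJB4 (0.5) were among the 5 higher. NRF2 antioxidant genes were lower in 12 of 26 cases and higher in 5 (median -0.12). PRDX1 (peroxiredoxin 1) fell by 0.89 and TXN (thioredoxin) by 0.43, whereas OSGIN1 (0.9) and the ATF4-shared SLC7A11 (0.73) rose. HMOX1, the heme oxygenase, was at 26.1, 26.5 and 27.9 CPM and 21.4, 24.8 and 23.2 CPM and was not called.

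Of 9 metallothionein and zinc export genes 1 was higher and 2 lower, beside 16.6% and 12.6% over all genes. The higher gene was the zinc exporter SLC30A1 (0.79), and the lower were MT2A (-0.38) and MT1E (-0.2). The call of MT1E was lost when some single wells were left out. The list median of 0.26 was set mostly by genes under 1 CPM. Of 13 mitochondrially encoded protein genes 6 were lower and 0 higher (median -0.19). Housekeeping genes were lower in 6 of 12 cases and higher in 2 (median -0.13). GAPDH fell by 0.22 and PPIA by 0.37, while TBP rose by 0.43. Under upper-quartile scaling 9 of the 12 were lower.

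Ribosome biogenesis genes were lower in 8 of 23 cases, such as NOP56 (-0.38), and higher in 4 (median -0.07). Under upper-quartile scaling 14 were lower and 2 higher, and with untreated 4 h wells as the control 20 were lower and 0 higher (median -0.33). Host genes of snoRNAs and noncoding RNAs that decay when translated were higher in 10 of 16 cases and lower in 3 (median 0.4), but with untreated 4 h wells as the control 7 were higher and 5 lower (median 0.05). ZFAS1 went from 66.9, 66.3 and 63.8 CPM to 143, 147 and 137 CPM and SNHG8 from 21.7, 20.5 and 21.1 CPM to 43.4, 48.5 and 44.3 CPM, whereas DANCR (-0.36), SNHG16 (-0.29) and SNHG3 (-0.21) fell. ZFAS1 and EPB41L4A-AS1 (0.7) are antisense genes, and the sources used here do not say whether counting used the strand.

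Growth and death genes had list medians from -0.04 to 0.2, and over all genes tested 16.6% were called higher and 12.6% lower. Mitosis genes were higher in 11 of 20 cases and lower in 0 with a median of 0.14, AURKA (0.42), TPX2 (0.31) and TTK (0.49) being first by p. Under upper-quartile scaling 8 were higher and 1 lower (median 0.05). With untreated 4 h wells as the control 17 were higher and 0 lower (median 0.49). DNA replication genes stood near the shares over all genes, at 5 of 24 higher, such as CDC6 (0.52), and 4 lower, such as PCNA (-0.42). Under upper-quartile scaling they stood at 4 higher and 12 lower. Of 22 p53 targets 12 were higher and 2 lower (median 0.2). Of these, SESN2 (2.46), BTG2 (1.27), GADD45A (1.17) and BBC3 (0.97) are also known ATF4, CHOP or immediate early targets, while CDKN1A (p21) rose by 0.3. In the BCL2 family 4 of 17 were higher, MCL1 (1.01), BBC3 (0.97), PMAIP1 (0.65) and the death receptor TNFRSF10B (0.51), and 2 were lower, BID (-0.4) and BAX (-0.13). These counts are near the shares over all genes tested. BCL2L11 (BIM), a known CHOP target, was not called (0.1). Hypoxia and glycolysis genes were even, 7 of 17 in each direction, with VEGFA (0.55) and SLC2A3 (0.66) higher and LDHA (-0.31) and ADM (-0.94) lower. Of the bone markers MSX2 (1.0) and RUNX2 (0.48) rose and COL1A1 (-0.55) and SPP1 (-0.99) fell, SPP1 being 0.93 lower in the dimerizer wells too, and of the epithelial markers KRT14 (-0.79), KRT8 (-0.26) and KRT18 (-0.17) fell. In bulk RNA fewer cells of a type and less RNA per cell cannot be told apart.

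The genes at least 2-fold higher had few exons, and so had those at least 2-fold lower. Of the higher protein-coding ones with a gene model in GENCODE 29 under the same identifier, 276 genes had a median of 4 exons over 14.7 kb, and 22.1% had 1 or 2 exons. The 145 such genes at least 2-fold lower had a median of 5 exons over 15.4 kb, and 26.2% had 1 or 2. All tested protein-coding genes had a median of 8 exons over 30 kb, and 12.3% had 1 or 2. The genes higher by any amount were, in contrast, long, with a median of 9 exons over 40 kb. Those lower by any amount had a median of 6 exons over 23.2 kb, and 14.3% had 1 or 2. Genes with zinc finger symbols were a second broad feature, noticed after their values were seen and given as a description only. The set took symbols that start with ZNF, ZSCAN, ZKSCAN, ZBTB, ZFP or ZXD, and so includes ZFP36. Of 649 such genes 386 were called higher and 20 lower (median 0.39), beside 16.6% and 12.6% over all genes. Such symbols made up 10.6% of the at least 2-fold higher genes against 2.4% of all tested.

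Thapsigargin and arsenite were compared directly at 2 h. Arsenite, used at 0.05 mM, reacts with thiols and is a second inducer of the integrated stress response. Between the treatments 3780 genes were higher with thapsigargin (14%) and 2879 lower (10.7%). Of the 33 ATF4 and CHOP targets, which both agents are known to induce, 15 were higher with thapsigargin, 6 lower and 12 not called (median 0.13). DDIT4 was at 379, 395 and 373 CPM with thapsigargin and 349 CPM with arsenite (0.13, not called), and CHAC1 was slightly lower with thapsigargin (-0.2). DDIT3 was at 111 CPM with arsenite and was 1.66 higher on the log2 scale with thapsigargin.

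The ER and the inflammatory genes separated the treatments. HERPUD1 had a mean of 120 CPM with arsenite and was 3.12 ± 0.05 (SE) higher with thapsigargin, DNAJB9 2.95 and HSPA5 2.37 higher, and 16 of the 18 ER chaperones were higher. NF-kB genes were higher in 19 of 21 cases and lower in 0 (median 1.64). TNF was at 0.104 CPM with arsenite, a difference of 7.12 ± 0.27 (SE), and CXCL8 at 14.9 CPM against 356, 316 and 290 CPM. With arsenite both were below the untreated 0 h wells, where TNF had a mean of 1.62 CPM. Against those wells thapsigargin raised TNF by 3.22 and CXCL8 by 1.63, and the median of the NF-kB list was 0.96. The differences between the treatments are thus not the size of the thapsigargin rise. CSF2 was 4.84 higher with thapsigargin although it was slightly lower after thapsigargin than at 0 h, at 17.2, 16.6 and 16.7 CPM untreated and 15, 12.2 and 11.4 CPM treated. Its arsenite mean was 0.433 CPM, and against untreated 4 h wells it was 0.63 higher after thapsigargin.

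The heat shock and oxidative arms were on the other side. HMOX1 had a mean of 2420.5 CPM with arsenite and was 6.71 lower with thapsigargin. HSPA6 (202 CPM with arsenite) and HSPA1B (2513.2 CPM) were 9.5 and 5.84 lower. Of 22 heat shock genes 21 were lower with thapsigargin and 0 higher (median -1.2), and of 9 metallothionein and zinc genes 7 were lower and 0 higher (median -3.05). Cholesterol genes were higher with thapsigargin in 18 of 22 cases and lower in 0 (median 0.83). FOS was not called different (0.08), while JUN was 0.33 and EGR1 1.6 higher with thapsigargin.

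The same comparison in Dmr-PERK cells used other wells altogether. There 4926 genes were called higher (18.2%) and 4046 lower (15%) at 2 h, 625 of them at least 2-fold higher (2.31%) and 236 at least 2-fold lower (0.874%), in treated libraries of 40476046 to 56504690 counts against 18034769 to 24207554 in the treated Parental wells. Called higher in both lines were 3593 genes, 80.3% of the Parental calls and 72.9% of the Dmr-PERK calls, and called lower in both were 2387, 70.3% and 59% of them. In opposite directions 30 genes were called. Among at least 2-fold changes, 279 of the 454 higher genes (61.5%) but 80 of the 433 lower genes (18.5%) were also at least 2-fold changed in the same direction in Dmr-PERK cells. The 2 sets differ in gene type. Of the 433 lower genes 167 were protein-coding and 185 long noncoding, and of the 454 higher genes 309 and 82. Whether gene type bears on the agreement was not tested. All 23 immediate early genes were higher there too, with 29 of 33 ATF4 and CHOP targets and 20 of 21 NF-kB genes higher, and 12 of 12 IRE1-dependent decay substrates lower.

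The size of the effect was tested between the lines and differed at 573 genes (2.12%), 267 of them higher (0.989%) and 306 lower (1.13%) in Parental relative to Dmr-PERK cells. At least 2-fold differences were 10 higher (0.037%) and 57 lower (0.211%). The count was 1142 when fitted on the libraries of these groups alone, 910 with DESeq2 (564 higher), 346 without the filter (102 higher) and 212 with limma on log2(TPM + 0.1) (53 higher), so its size and balance depend on the method. The ER chaperones were among those with the smaller rise in Parental cells, 6 of 18, with 1 larger. HSPA5 rose by 1.89 in Parental and by 2.7 in Dmr-PERK cells, a difference of -0.81 ± 0.06 (SE, edgeR adjusted p = 7.13e-22). HERPUD1 (-0.82), DDIT3 (-0.9), EGR4 (-0.82), FOS (-0.79) and CXCL8 (-0.87) also rose less in Parental cells. EIF2AK3 rose by 1.76 in Parental and by 0.11 in Dmr-PERK cells, and whether reads of the construct's mouse PERK are counted on the human gene was not tested. TXNIP rose by 2.51 and by 0.35, and COL3A1 fell by 0.35 in Parental cells and rose by 1.6 in Dmr-PERK cells. Whether the line is 1 clone is not given in the labels, so clone and construct cannot be told apart.

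**Figure D5:**
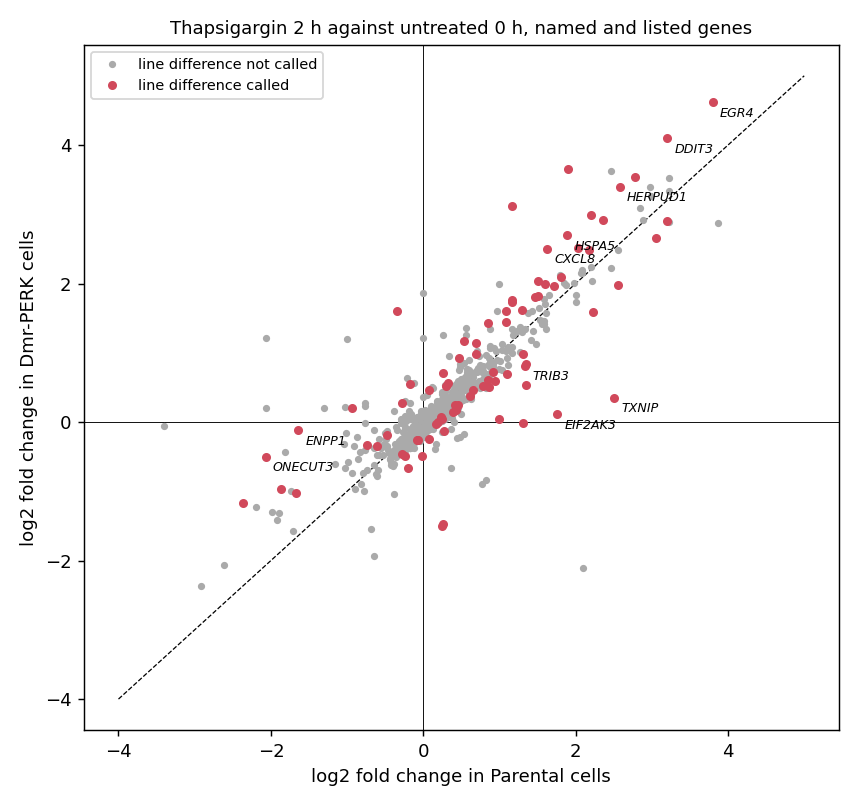
Log2 fold change at 2 h in Parental (x axis) and Dmr-PERK cells (y axis) for the genes named or listed here, each point a gene, with genes whose effect was called different between the lines in red and equality as a dashed line. Most genes lie near the line, EIF2AK3 and TXNIP are far to the right, and HSPA5, HERPUD1, DDIT3 and EGR4 are above it.

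Thapsigargin wells at 4 h were compared with those at 2 h. No untreated wells at 2 h are among the samples, so this difference holds drug and time on the plate together. These values share the 2 h wells with the main comparison, so a well that was high at 2 h lowers the difference. From 2 to 4 h 4546 genes were called higher (16.8%) and 4423 lower (16.4%). Of the 454 genes at least 2-fold higher at 2 h, 197 were called lower at 4 h than at 2 h, 93 higher and 164 neither. All 23 immediate early genes were lower at 4 h (median -2.06). FOSB went to 4.53 CPM, EGR2 to 12.4 CPM and NR4A1 to 290 CPM, all 3 below their untreated 0 h means of 18.3, 17.6 and 684 CPM. Untreated wells at 4 h were lower still, at 1.85, 2.67 and 195 CPM. The ID and BMP list was lower in 11 of 12 cases (median -1.09) and mitosis genes in 19 of 20 (median -0.45). Against untreated wells of the same 4 h their medians were 0.37 and 0.02, beside -0.02 over all genes.

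The ATF4 and ER groups went on. At 4 h 27 of the 33 ATF4 and CHOP targets were higher than at 2 h and 4 lower (median 0.89), and of the 29 that had risen by 2 h 23 went further up. TRIB3 rose from a mean near 50 CPM to 396 CPM, while DDIT3 (322 CPM) and CHAC1 (64.7 CPM) were not called different from 2 h. All 18 ER chaperones were higher at 4 h than at 2 h (median 0.52), including SIL1 (0.87) and CALU (0.19), which had been lower at 2 h. So were 22 of 25 degradation and secretion genes, 19 of 20 tRNA synthetases (median 0.57), 11 of 14 amino acid transporters and 23 of 23 ribosome biogenesis genes (median 0.51). Against untreated 4 h wells the medians at 4 h were 0.59 for the synthetases, 0.9 for the transporters and 0.13 for ribosome biogenesis. INSIG1 (-1.36) was lower at 4 h than at 2 h, as were 10 of 22 cholesterol genes in all, and 4 were higher. Of the 433 genes at least 2-fold lower at 2 h 101 were higher at 4 h and 9 lower. RGS4 stood at 30.3 CPM, still below the 51.8 CPM of untreated 4 h wells by 0.79 on the log2 scale (edgeR adjusted p = 7.58e-19). LONRF2 stood at 32.4 CPM, with 32.7 CPM in those wells, a difference of 0.02 that was not called, whereas ONECUT3 (2.81 CPM) and SOX8 (5.34 CPM) were not called different from 2 h and LHX1 (0.456 CPM) fell further.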

How the data were processed

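RNA from wells of U2OS cells was sequenced after a stranded library kit, per the labels' protocols. Per the submitters' processing notes FastQC 0.11.5 and Salmon 0.9.1 were used with GRCh38, and strand use in counting is not stated in these sources. The authors deposited estimated counts per gene, of which 49.5% of the nonzero values were whole within 1e-05, and TPM values, used only for an alternative. The estimated counts were rounded. One edgeR 4.0.16 quasi-likelihood fit (R 4.3.3, TMM scaling) covered all 120 libraries in 40 groups and 26998 genes with a count minimum of 10, with Benjamini-Hochberg adjustment, and genes under 0.05 were called. SE is the log2 fold change divided by the root of F. The code was tested on simulated data. Alternatives were RLE and upper-quartile scaling, other filters, controls and thresholds, a replicate block, each well left out, DESeq2 1.42.0, and limma 3.58.1 on log2(TPM + 1) and log2(TPM + 0.1). Positions came from GENCODE 29, with 53330 identifiers matched. Promoters of 15281 of the tested genes matched RefSeq. Named genes were the 12 highest and 12 lowest changes with a mean of at least 5 CPM and groups that did not overlap. From each list came the 3 genes lowest in p, and a panel of known markers was added. Each other comparison gave its 5 highest and 5 lowest. Other list members were named to describe their list, after their values were seen, as were the genes with the stress element. The groups and lists were chosen with earlier results of these data known. Some genes that these rules name are not reported here.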

Additional observations from a re-analysis of the deposited data

Results flagged for a closer look

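The effect of 2 h of thapsigargin differed between the lines, by a test of the difference itself, at 48 of the named genes. The values are log2 fold changes in Parental cells minus those in Dmr-PERK cells, and the treated Dmr-PERK libraries were deeper. Genes that were higher in Parental cells but by less than in Dmr-PERK cells were CXCL8 (-0.87), DDIT3 (-0.90), DNAJB9 (-0.30), DUSP1 (-0.39), EGR4 (-0.82), FOS (-0.79), GADD45A (-0.56), GRM8 (-1.97), HERPUD1 (-0.82), HMGCS1 (-0.48) and HSD17B7P2 (-0.76). The others were HSPA5 (-0.81), HYOU1 (-0.32), JUN (-0.56), KLF6 (-0.45), NUAK2 (-0.28), RCAN1 (-0.36), RP11-325K4.3 (-1.76), SNHG17 (-0.30) and STARD4 (-0.27). Genes that were higher in Parental cells, with a larger value than in Dmr-PERK cells, were AJUBA (0.24), ARRDC3 (0.81), ARRDC4 (0.94), ATF3 (0.30), ATF4 (0.19), DDIT4 (0.39), EIF2AK3 (1.65), KLF10 (0.41), KLF11 (0.34) and MTHFD2 (0.20). The others were NR1D1 (0.64), PRDM1 (1.33), SHMT2 (0.18), SLC30A1 (0.26), TRIB3 (0.53), TXNIP (2.16) and ZFP36 (0.59). Genes with a lower value in Parental than in Dmr-PERK cells and a fall in Parental cells were COL3A1 (-1.94), COL5A1 (-0.26), ENPP1 (-1.52), EREG (-1.19), LONRF2 (-0.64), NOTCH3 (-0.41), ONECUT3 (-1.57), PDGFRB (-0.29) and TNFRSF11B (-0.91). MT1E (0.48) was lower in Parental cells by less than in Dmr-PERK cells. CH507-513H4.6 (1.73) was at 0.26 in Parental cells, where it was not called, and at -1.47 in Dmr-PERK cells. PRDM1 was at -0.02 in Dmr-PERK cells. Whether reads of the construct's mouse PERK are counted on human EIF2AK3 was not tested.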

How the results depend on the processing

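The count of genes called after thapsigargin in Parental cells stayed within 1.5 times of 7870 under every alternative run, from 5914 with limma on log2(TPM + 0.1) to 10502 with untreated 4 h wells as the control. Leaving out 1 well at a time gave 6675 to 7292 genes for that comparison, 6562 to 7013 against dimerizer, 5574 to 6058 against arsenite, 7848 to 8565 in Dmr-PERK cells, 7911 to 8364 for 4 h against 2 h, 383 to 512 for the line difference and 15 to 47 for dimerizer against untreated. The dimerizer count was also 23 with limma on log2(TPM + 1), 17 with limma on log2(TPM + 0.1) and 78 with DESeq2. The line difference was 346 without the filter, 1142 on the compared groups alone, 288 and 212 with limma at the pseudocounts 1 and 0.1, and 910 with DESeq2. The cause was not tested. Upper-quartile scaling turned the share of calls that were higher from 56.9% to 37% in Parental cells, from 57.1% to 38% against dimerizer, from 56.8% to 40.5% against arsenite and from 54.9% to 39.9% in Dmr-PERK cells. Under it the medians of the calcium store, MAP kinase, SRF, BCL2 and bone marker lists were below 0, and the lists turned to 4 higher and 5 lower for the stress sensors and the BCL2 family, to 11 lower for mitochondrially encoded genes and to 18 lower for NRF2 genes. With untreated 4 h wells as the control 3 named genes changed sign: GNL3 was at -0.00, IFIT1 at 0.29 and CSF2 at 0.63. Of 166 named genes 152 kept their direction and their call under all alternatives run. HMOX1 was called lower under 6 alternatives, such as DESeq2 (-0.23), and MT1E (-0.2) lost its call without any 1 of 4 wells. Deviations of untreated and treated Parental wells with the same replicate number correlated at -0.029, -0.056 and 0.011, those of untreated and dimerizer wells at 0.173, 0.121 and 0.067, and those of Dmr-PERK wells at 0.042, 0.052 and 0.086. In the last 2 comparisons each well correlated best with its own number, a hint from the data only. In no comparison were all 3 pairs above 0.1, so the number was not taken to pair wells. A replicate block gave 7888 calls, 7676 against dimerizer, 51 for dimerizer against untreated, 6669 against arsenite, 8968 in Dmr-PERK cells, 590 for the line difference and 8951 for 4 h against 2 h. Genes under 1 CPM had wide errors at these depths.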
